A study of Mus musculus with 4 samples.

Results

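The genes described here encode the main enzymes that handle drugs and other foreign compounds in the mouse, as measured in scrapings of the colon. A gene was taken when its symbol placed it among the cytochromes P450 of families CYP1 to CYP4, the UDP-glucuronosyltransferases (UGT1A, UGT2), the glutathione S-transferases (GSTA, GSTM, GSTP, GSTT, GSTO, GSTK) or the sulfotransferases (SULT1, SULT2), and when a probe set of the array named it alone. This gave 106 of the 19938 genes with such a probe set, and 58 of the 106 had a linear signal above 50 on at least 1 array, the intensity floor of the study. The remaining 48 members stayed below that floor on every array. They enter no count of differences, and any value given for them lies below the floor. Of the 58, 3 (Cyp2d13, Cyp2d37-ps and Cyp4f41-ps) are annotated as transcribed pseudogenes.

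Detoxification is usually described in phases. Cytochromes P450 oxidise lipophilic compounds in the endoplasmic reticulum with electrons passed on from NADPH, and the oxidised groups are then joined by transferases to glucuronic acid, glutathione or sulfate, which makes them soluble enough for transporters to export. Liver is the main site, and the gut wall is the first tissue that swallowed compounds meet. Several nuclear receptors and the aryl hydrocarbon receptor switch these genes on when their ligands arrive, and many of the same enzymes also act on fatty acids, steroids, bile acids and retinoids.

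To compare age and diet, the study used male C57BL/6J mice, an inbred laboratory strain, aged 4 or 21 months and fed for 2 weeks on a purified, palm oil based diet in which fat supplied 10% (low-fat) or 45% (high-fat) of the energy. All mice had been on the low-fat diet before that. Each of the 4 groups (young/low-fat, young/high-fat, old/low-fat, old/high-fat) was 1 RNA pool, of 6 mice for each young and 8 for each old group, on 1 Affymetrix Mouse Gene 1.0 ST array. No group had a replicate, so single comparisons carry no p-value and no error, and they compare pools. Scrapings hold mucosa and submucosa, and a lower signal in such bulk tissue can come from fewer cells of a type or from less RNA per cell, which cannot be told apart. All 14 colonocyte markers measured, such as the carbonic anhydrase gene Car1 and the chloride exchanger gene Slc26a3, were above 50 on every array, as were all 7 goblet cell markers.

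The arrays differed in markers of other cells. Signals of 10 adipocyte markers summed to 1410.5, 846, 1538 and 2982 on the arrays of young/low-fat, then young/high-fat, then old/low-fat, then old/high-fat mice, and those of 9 smooth muscle markers to 1536, 3952, 1839 and 1525 in the same order. The 12 leukocyte markers summed to 1608, 1793, 4603 and 4756. The 16 hepatocyte markers, some of which gut also transcribes, summed to 3090.1, 2961, 4610.0 and 3787. The largest part of each sum was Apob (1347, 1391, 2052 and 2030), which is also on the enterocyte list, so the sums do not measure hepatocytes alone. Of the 16, 5 (Ahsg, Fga, Fgb, Fgg, Mup3) were below 50 on every array. Alb (serum albumin) stood at 29.8, 32.0, 355 and 33.7 and was high on the old/low-fat array alone. Serpina1c (11.2, 11.8, 77.6 and 12.1) was also above 50 on that array alone, and Ahsg, Fgb and Fgg had their highest signals there. Ambp, Hp, Hpx and Ttr did not. Markers of gut position differed too. The distal colon gene Hoxb13 stood at 896, 627, 761 and 989, and Hoxa13 at 205, 177, 211 and 241. Both were lowest with young/high-fat and highest with old/high-fat mice, whereas Hoxd13 (282, 287, 255 and 281) was not. Of the 13 enterocyte markers above 50, 6 were higher in old mice with low-fat feeding and 10 with high-fat feeding. Their median age differences (log2) were -0.01 and 0.27, so the list as a whole had no common direction across the diets. Among these markers, Fabp6 (461, 674, 1722 and 1202) was higher and Slc10a2 (2620, 3303, 2143 and 2193) lower in old mice on both diets. Whether the stretch of gut sampled had a part in the differences below was not tested. Array medians ran from 6.12 to 6.20 (log2), and Pearson's r between arrays over the probe sets was 0.989 to 0.993. In all lists of values below, the arrays come in this same order: young/low-fat, young/high-fat, old/low-fat, old/high-fat.

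Signals were seen in every conjugating family and in a minority of the P450 genes. Of 70 P450 genes 31 were above the floor, of 8 UGT genes 5, of 18 GST genes 17 and of 10 SULT genes 5. None of the 3 CYP1 genes (Cyp1a1, Cyp1a2, Cyp1b1), which the aryl hydrocarbon receptor controls, and none of the 7 CYP2A and CYP2B genes reached it. Cyp1a1 stood at 19.8, 15.1, 16.2 and 15.8 and Cyp2b10, a standard target of the receptor CAR, at 21.2, 20.9, 19.9 and 20.2. In CYP2D 9 of 10 genes were above the floor, in CYP2C 6 of 13, in CYP2J 2 of 6, in CYP3 2 of 6, in CYP4 6 of 16 and in the other CYP2 genes 6 of 9. All 7 GSTM genes, 4 of 6 SULT1 genes and 1 of 4 SULT2 genes were above it. The UGT1A genes share 1 probe set that covers 8 of them, so none was a member. Nearest above the floor by their highest signal were Gstp3 (50.6 on the old/high-fat array) and Cyp4f41-ps (53.6), and nearest below were Cyp4f18 (48.7) and Gstt4 (45.5). The floor was passed on all 4 arrays by 52 members.

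**Figure D1:**
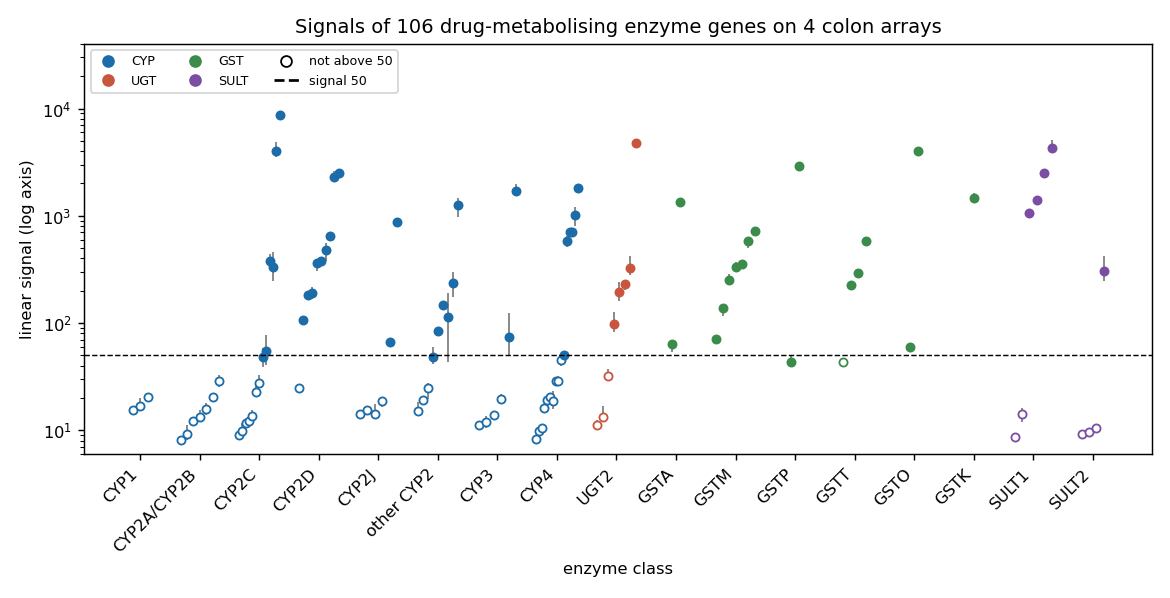
Linear signal (log axis) of each of the 106 members by enzyme class. Points are the mean of the log2 signals of the 4 arrays and lines run from the lowest to the highest array. Filled points were above the floor of 50 (dashed) on at least 1 array, which holds for 58 members. Points of different probe sets are not on 1 scale and do not rank transcripts.

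Most of these enzymes differed little between the arrays. The highest of the 4 signals was a median of 1.22-fold above the lowest among the 58 members and 1.20-fold among all 12665 genes above the floor. It was more than 1.5-fold above it for 8 (13.8%, against 6.11%). These 8 were Cyp2e1, Cyp3a25, Cyp2c67, Cyp2c68, Cyp2c37, Cyp2f2, Sult2b1 and Ugt2b36. The old/high-fat array gave the highest signal for 23 members (39.7%, against 28.5% of all genes) and the lowest for 4 (6.90%, against 21.4%). The young/high-fat array was the highest for 21 (36.2%, against 24.1%) and the lowest for 20 (34.5%, against 28.5%).

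The rule of the study counts a gene that differs by more than 2.0-fold between 2 arrays. By age on the low-fat diet it counted 0 of the 58 members (0.426% of all 12665 genes), and by age on the high-fat diet 1 (0.663% of all genes). By diet it counted 1 member in young mice (0.118% of all genes) and 0 in old mice (0.103% of all genes). The member counted was Cyp2e1 in both cases. At more than 1.5-fold the counts were 1 for age on the low-fat diet (background 2.26%), 5 for age on the high-fat diet (background 3.41%), 3 for diet in young mice (background 1.45%) and 3 for diet in old mice (background 1.14%). The 5 were all higher in old mice: Cyp2e1, Cyp3a25, Cyp2c67, Cyp2c68 and Cyp2f2. The 3 of old mice were all higher on the high-fat diet: Cyp2c67, Cyp3a25 and Sult2b1. In young mice Cyp2e1 and Cyp2c37 were lower and Ugt2b36 higher on the high-fat diet. The count of Cyp2c37 rests on a signal of 39.0, and with signals under 50 raised to 50 only 2 members were counted there, Cyp2e1 and Ugt2b36.

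Cyp2e1, which oxidises ethanol, acetone and many small solvents, had signals of 115, 43.5, 191 and 173. It was low on the young/high-fat array and high on both old arrays. Old exceeded young 1.65-fold with low-fat and 3.97-fold with high-fat feeding, and young mice on the high-fat diet were 2.65-fold below young mice on the low-fat diet, whereas old mice differed by diet only 1.10-fold. The signal of 43.5 was below the floor, so that these folds are not exact. With it raised to 50 the age difference on the high-fat diet was 3.46-fold and the diet difference in young mice 2.31-fold, and if both arrays had to be above 50 neither was counted. In the additive limma fit of age and diet over all genes, Cyp2e1 was 1.36 ± 0.25 (SE) higher in old mice on the log2 scale, with an adjusted p of 0.0688, and thus missed 0.05. This SE is moderated, with 8.97 prior degrees of freedom drawn from all genes and 1 from Cyp2e1 itself. The age differences of Cyp2e1 on the 2 diets were 1.27 apart (log2). Without the young/high-fat array a limma fit of age alone gave 0.65 ± 0.16 (adjusted p = 0.196). Such a fit leaves 1 array in an arm, assumed to vary like the other 2, and mixes age with diet. Adipocytes and hepatocytes also transcribe Cyp2e1. Adipoq, the adipocyte hormone adiponectin, stood at 81.9, 35.0, 94.1 and 207.5, and of 10 adipocyte markers 9 were above 50 on at least 1 array, with Lep, which encodes leptin, below it on all 4. Fabp4, a fatty acid carrier of adipocytes, stood at 213, 107, 247 and 584. Both were lowest on the young/high-fat array, as Cyp2e1 was, but on the old arrays they were higher on the high-fat diet while Cyp2e1 was not. The hepatocyte markers Alb (29.8, 32.0, 355 and 33.7) and Serpina1c (11.2, 11.8, 77.6 and 12.1) were above 50 on the old/low-fat array alone. Cyp2e1 was highest on that array too, at 191, but stood at 173 on the old/high-fat array. The part of other cell types in the Cyp2e1 difference was not tested.

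The CYP3 family, whose human counterparts clear a large share of medicines, had 2 members above the floor. Cyp3a25 had signals of 50.4, 63.6, 72.9 and 125. It was higher on the old array of each diet (log2 0.53 and 0.97) and on the high-fat array of each age (0.34 and 0.77), and the old/high-fat array stood apart from the other 3. Its additive limma estimates were 0.75 ± 0.17 for age (adjusted p = 0.178) and 0.55 ± 0.17 for diet (adjusted p = 1.0). Without the old/low-fat array a limma fit of age alone gave 1.14 ± 0.19 (adjusted p = 0.0344), and without the old/high-fat array 0.36 ± 0.19 (adjusted p = 1.0). These fits too have 1 old array each, and age is mixed with diet in them. Cyp3a13, an intestinal CYP3A enzyme, had signals of 1567, 1973, 1639.6 and 1673, 0.33 higher on the high-fat diet in young and 0.03 higher in old mice. The 4 others (Cyp3a11, Cyp3a16, Cyp3a44, Cyp3a57) had a highest signal of 21.7.

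**Figure D2:**
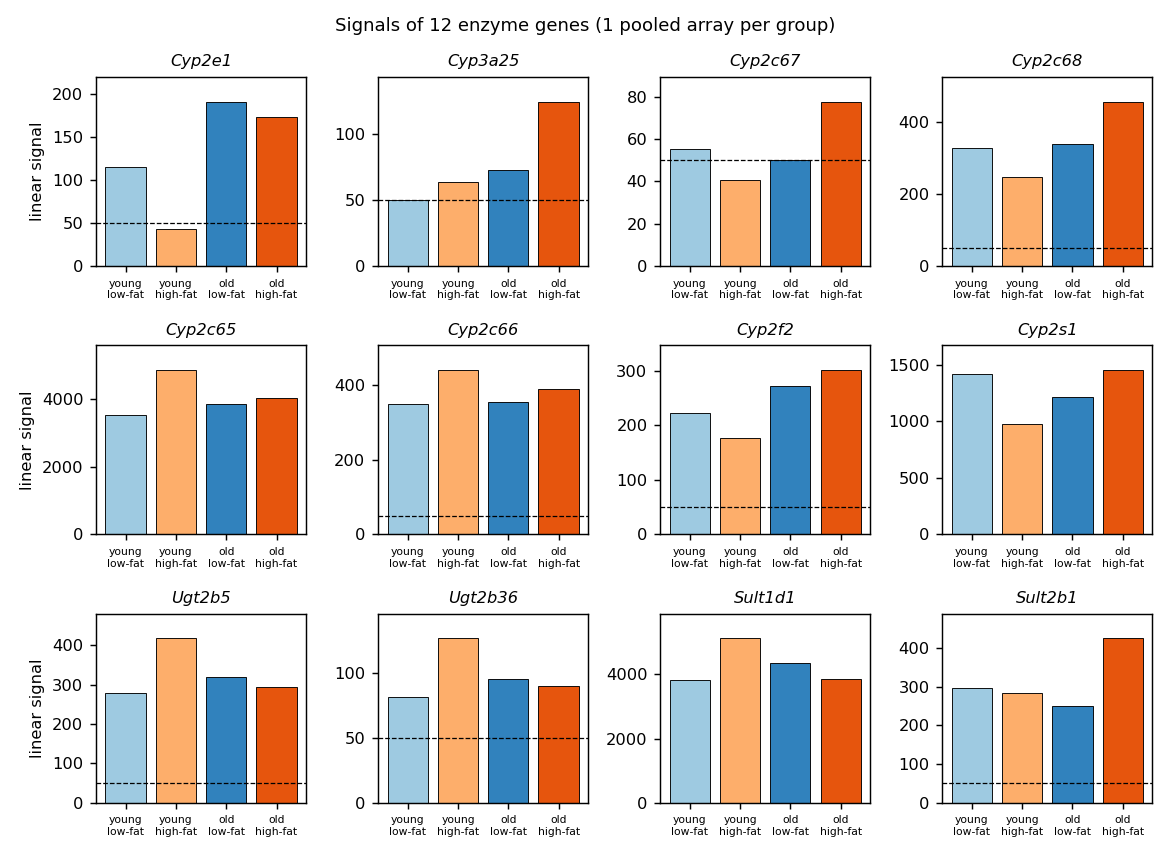
Linear signals of 12 members on the 4 arrays, 1 bar per array with no error, since each group was 1 pooled array; the dashed line marks the floor of 50 where the axis allows. Cyp2e1 was lowest at 43.5 on the young/high-fat array, Cyp3a25 highest at 125 on the old/high-fat array, and Ugt2b5 and Ugt2b36 highest on the young/high-fat array at 418 and 127.

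CYP2C enzymes epoxidise and hydroxylate arachidonic acid and other fatty acids as well as drugs. Cyp2c55, a P450 of the large intestine, differed little with signals of 8400.0, 9107, 8495 and 8533. Its chromosomal neighbours in the RefSeq gene order split in direction. Cyp2c65 (3511, 4846, 3835 and 4028) and Cyp2c66 (348, 440.0, 355 and 389.6) peaked on the young/high-fat array, 0.47 and 0.34 above young/low-fat. Further along the same chromosome, Cyp2c67 (55.4, 40.7, 50.3 and 77.6), Cyp2c68 (327, 248, 338 and 456) and Cyp2c37 (58.8, 39.0, 47.4 and 51.0) were lowest there, with differences of -0.44, -0.40 and -0.59 from young/low-fat on the log2 scale. Cyp2c67 and Cyp2c68 had their highest signal on old/high-fat, 0.62 and 0.43 above old/low-fat. Their old minus young differences were 0.93 and 0.88 on the high-fat and -0.14 and 0.05 on the low-fat diet. The additive limma fit gave 0.46 ± 0.20 for age in Cyp2c68 (adjusted p = 1.0). For Cyp2c67 the lower signals were near or under the floor, and with signals under 50 raised to 50 its age difference on the high-fat diet was 1.55-fold and its diet difference in young mice 1.11-fold. For Cyp2c37, with signals of 39.0 and 47.4 under the floor, the diet difference in young mice was then 1.18-fold.

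The promoters of these genes are shown because the genes lie in 1 cluster and differed in opposite directions. The sequences come from RefSeq (build GRCm38.p6), run 5' to 3' on the strand of the gene, and span 250 bases before to 50 after the annotated start. Capitals mark matches on either strand to 4 motifs: GCGTG, the core of the xenobiotic response element bound by the aryl hydrocarbon receptor; TGACNNNGC, the antioxidant response element; AGGTCA, the hexamer bound by many nuclear receptors; and CAAAGTCCA, a site of HNF4, a nuclear receptor of liver and gut epithelium. No matches overlap in the sequences printed.
Cyp2c65 (chr19:39060756-39061055, plus strand): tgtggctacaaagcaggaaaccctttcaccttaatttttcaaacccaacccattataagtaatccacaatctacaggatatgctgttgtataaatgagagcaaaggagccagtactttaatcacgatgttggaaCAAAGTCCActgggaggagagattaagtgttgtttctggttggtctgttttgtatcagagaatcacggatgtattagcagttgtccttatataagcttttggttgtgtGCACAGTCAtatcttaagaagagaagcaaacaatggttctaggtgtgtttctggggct
Cyp2c67 (chr19:39648993-39649292, minus strand): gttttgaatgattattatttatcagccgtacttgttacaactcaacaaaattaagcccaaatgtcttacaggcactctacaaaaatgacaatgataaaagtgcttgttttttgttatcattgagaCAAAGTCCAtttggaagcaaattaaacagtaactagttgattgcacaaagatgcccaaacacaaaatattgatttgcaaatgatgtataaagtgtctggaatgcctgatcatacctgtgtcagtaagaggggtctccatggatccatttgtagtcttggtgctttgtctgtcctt
Cyp2c68 (chr19:39741052-39741351, minus strand): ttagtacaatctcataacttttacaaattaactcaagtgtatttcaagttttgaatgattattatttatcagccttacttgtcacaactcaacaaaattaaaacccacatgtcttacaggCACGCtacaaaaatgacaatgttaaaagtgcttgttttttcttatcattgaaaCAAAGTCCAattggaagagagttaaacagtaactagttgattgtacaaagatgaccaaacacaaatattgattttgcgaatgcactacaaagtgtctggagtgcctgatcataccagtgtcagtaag
All 3 hold CAAAGTCCA once, at -116, -125 and -77 from the start, while Cyp2c65 was higher and Cyp2c67 and Cyp2c68 lower on the young/high-fat than on the young/low-fat array. The letters occur in 0.477% of all 27025 promoters and in 6 of the 88 member promoters (Cyp2c65, Cyp2c67, Cyp2c68, Cyp2c70, Cyp3a11, Cyp3a16). Cyp2c65 also holds TGACNNNGC and Cyp2c68 GCGTG, each once and on the other strand. Cyp2c67 and Cyp2c68 share an unbroken stretch of at least 27 bases (gttttgaatgattattatttatcagcc), which begins at the first base printed for Cyp2c67. The letters around CAAAGTCCA are also alike in both promoters, and -125 and -77 each count from the gene's own annotated start. Hnf4a itself had signals of 3255, 2402, 2501 and 3137, a diet difference of -0.44 in young and 0.33 in old mice. Its paralogue Hnf4g went the other way (674, 737, 762 and 558), with diet differences of 0.13 in young and -0.45 in old mice. A part of either gene in the Cyp2c differences was not tested.

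**Figure D3:**
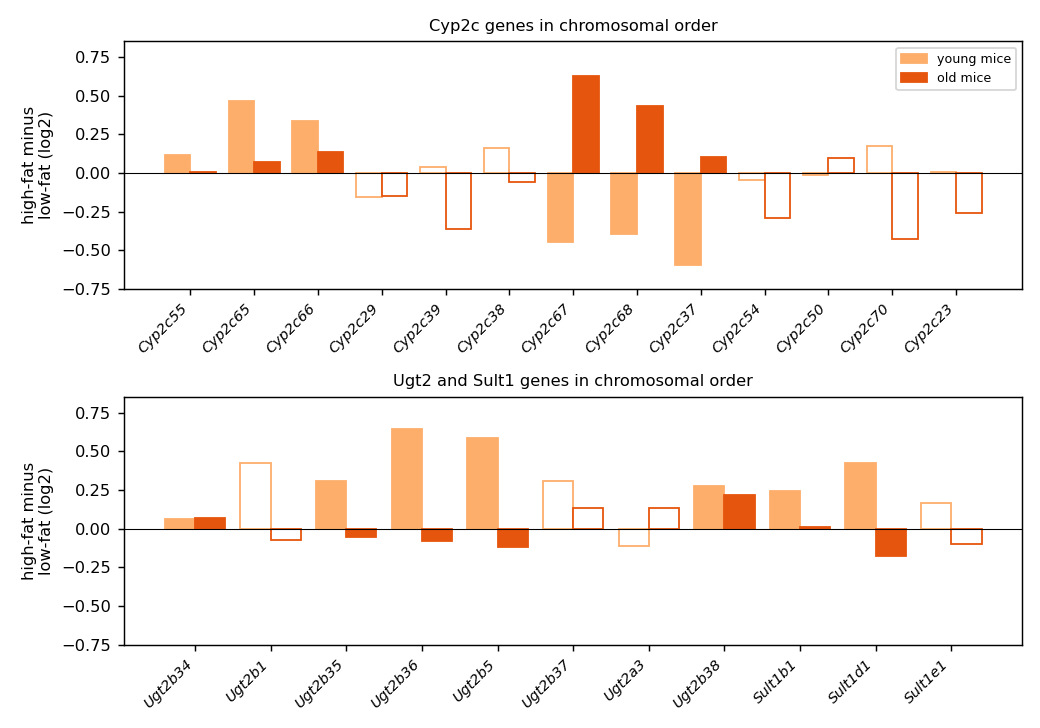
High-fat minus low-fat difference (log2) in young (light) and old (dark) mice for the Cyp2c genes of chromosome 19 and the Ugt2 and Sult1 genes of chromosome 5, in RefSeq gene order and not to scale. Filled bars are members above the floor and open bars members below it. In young mice Cyp2c65 and Cyp2c66 point up and Cyp2c67, Cyp2c68 and Cyp2c37 down, and all 7 filled Ugt2 and Sult1 genes point up.

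In the CYP2D group, relatives of the human debrisoquine hydroxylase, the changes were small. Cyp2d34 had signals of 2569, 2268, 2477 and 2659, Cyp2d26 of 2287, 2625, 2051 and 2237, and Cyp2d22 of 660.5, 576, 638 and 701. All 9 CYP2D members above the floor were higher on the high-fat diet in old mice, by 0.05 to 0.20, with either rescaling of the arrays too. Of all genes 51.4% were higher as deposited, and 68.0% with centred arrays. Of these 9, 2 are the pseudogenes Cyp2d13 and Cyp2d37-ps. In young mice 6 of the 9 were lower on the high-fat diet, where 49.0% of all genes were higher, or 36.2% with centred arrays. The lowest difference was that of Cyp2d12 (505, 376, 497 and 559, log2 difference -0.43). These genes are close relatives on chromosome 15, and whether their probes cross-hybridise was not tested, which holds as well for the CYP2C, UGT2 and GSTM genes.

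The other CYP2 genes included Cyp2s1, which metabolises retinoids and carcinogens in epithelia, with signals of 1422, 979.7, 1211 and 1453. It was lowest on the young/high-fat array, a log2 difference of -0.54 from young/low-fat. Its old minus young difference was 0.57 on the high-fat and -0.23 on the low-fat diet. Cyp2f2, an enzyme of lung club cells that activates naphthalene, had signals of 222, 176, 272 and 301 and was higher in old mice on both diets, by 0.29 and 0.78 (additive limma fit 0.53 ± 0.17, adjusted p = 0.658). Cyp2w1, an orphan P450 known from fetal colon and colon tumours, differed little (155, 153, 132 and 147). Cyp2r1, which hydroxylates vitamin D, was above the floor on the old/low-fat array alone (41.4, 46.8, 60.1 and 46.3). Cyp2j6 had signals of 786, 923, 933 and 872, and Cyp2j9 of 66.7, 71.0, 66.7 and 62.9.

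CYP4 enzymes hydroxylate the omega end of fatty acids and of leukotrienes. The fatty acid induced genes Cyp4a10 and Cyp4a14, standard targets of PPARalpha, stayed below the floor on both diets, Cyp4a10 at 17.2, 23.4, 19.3 and 15.7 and Cyp4a14 at 14.9, 15.9, 16.5 and 17.0. Cyp4b1 had signals of 1048, 1194, 810.0 and 1018. It was lower in old mice on both diets (-0.37 and -0.23) and higher on the high-fat diet at both ages (0.19 and 0.33), and its additive limma estimates of -0.30 ± 0.16 and 0.26 ± 0.16 had adjusted p of 1.0. Cyp4f14, a leukotriene B4 hydroxylase (1710.0, 1826, 1929 and 1763), and Cyp4f16 (629, 764, 764 and 701) differed by at most 0.28 in any comparison.

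UGT2 enzymes conjugate steroids, bile acids and drugs with glucuronic acid. Ugt2b34 was level on the 4 arrays (4621, 4834, 4608 and 4839). Ugt2b5 (279, 418, 320.3 and 295), Ugt2b36 (81.6, 127, 95.6 and 90.6) and Ugt2b35 (202, 249.8, 245 and 236) peaked on the young/high-fat array. The high-fat minus low-fat differences of these 3 genes were 0.58, 0.64 and 0.31 in young and -0.12, -0.08 and -0.05 in old mice. Their age differences accordingly had opposite signs, 0.20, 0.23 and 0.28 with low-fat and -0.50, -0.49 and -0.08 with high-fat feeding. Ugt2b38 (198, 240.0, 161 and 188) instead was lower in old mice on both diets (-0.30 and -0.35) and higher on the high-fat diet at both ages (0.28 and 0.22). The UGT2 genes lie beside Sult1b1, Sult1d1 and Sult1e1 on chromosome 5. Of these 11 neighbours 7 were above the floor, and all 7 were higher on the high-fat diet in young mice, by 0.07 to 0.64, where 49.0% of all genes were higher. With the arrays centred on their medians or quantile normalized again 6 of the 7 were, against 36.2% and 48.2% of all genes. In old mice 3 of the 7 were higher, against 51.4% of all genes, or 5 with centred arrays, against 68.0%. Of the 9 smooth muscle markers 8 (all but Smtn) also peaked on the young/high-fat array, with Acta2, smooth muscle actin, at 718, 1972, 989 and 694, and their part in these differences was not tested.

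The promoters of Ugt2b36 and Ugt2b5, the members with the highest diet differences in young mice, are shown for the stretch they share, with the same build, window and capitals.
Ugt2b36 (chr5:87092506-87092805, minus strand): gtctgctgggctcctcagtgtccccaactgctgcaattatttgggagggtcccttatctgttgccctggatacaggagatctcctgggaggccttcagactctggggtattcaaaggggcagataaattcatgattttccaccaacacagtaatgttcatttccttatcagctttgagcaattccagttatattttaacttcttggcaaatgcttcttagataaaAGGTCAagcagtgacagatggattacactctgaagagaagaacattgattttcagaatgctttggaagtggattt
Ugt2b5 (chr5:87140291-87140590, minus strand): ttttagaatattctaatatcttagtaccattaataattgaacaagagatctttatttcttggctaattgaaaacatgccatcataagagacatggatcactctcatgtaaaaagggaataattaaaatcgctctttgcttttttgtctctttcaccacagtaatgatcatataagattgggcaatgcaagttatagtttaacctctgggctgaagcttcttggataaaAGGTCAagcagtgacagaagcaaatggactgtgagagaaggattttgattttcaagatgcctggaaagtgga
Each holds AGGTCA once, at -25 and -22 from the start, within a shared run of 24 bases (gataaaaggtcaagcagtgacaga) that only the Ugt2b37 promoter also holds among 27025.

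Sulfotransferases add sulfate to phenols, catecholamines, steroids and hydroxylated carcinogens. Sult1d1, a catecholamine sulfotransferase, had signals of 3819, 5129.7, 4346 and 3845. Its diet differences were 0.43 in young and -0.18 in old mice, and its age differences 0.19 with low-fat and -0.42 with high-fat feeding. Sult1b1, which acts on thyroid hormones and small phenols (1252, 1485, 1465 and 1472), and Sult1a1, the phenol sulfotransferase (2478, 2536, 2433 and 2685), differed by at most 0.25. Sult2b1, a cholesterol sulfotransferase, had signals of 298, 285, 249 and 425. The old/high-fat array stood above the other 3, with diet differences of 0.77 in old and -0.06 in young mice and age differences of 0.58 with high-fat and -0.26 with low-fat feeding. Its additive limma estimates were 0.35 ± 0.20 for diet and 0.16 ± 0.20 for age, each with an adjusted p of 1.0. None of the 3 SULT2A genes, bile acid and steroid sulfotransferases, reached the floor.

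The glutathione S-transferases were the most even family, with no member over 1.5-fold in any comparison. The range over the 4 arrays had a median of 1.16-fold. Gstt3 was the most level of the 58 members at 578, 585, 583 and 577 (1.01-fold). Gsto1 (3895, 4377, 3787 and 4136), Gstp1, a target of the antioxidant response (3045, 2971, 2687 and 2982), Gstk1, a mitochondrial and peroxisomal form (1391, 1614, 1422 and 1416), and Gsta4, which detoxifies the lipid peroxidation product hydroxynonenal (1297, 1371, 1383 and 1342), differed by at most 0.21. Gstt1 (280.0, 282, 287 and 313), Gstt2 (222, 221, 227 and 232), Gsto2 (54.0, 63.9, 60.7 and 60.8) and Gsta3 (66.2, 54.1, 66.6 and 68.5) stayed within 0.34 in every comparison. All 7 GSTM genes were higher in old than in young mice on the high-fat diet, by 0.05 to 0.36, and 6 of 7 were lower on the high-fat diet in young mice, with either rescaling too. The corresponding shares of all genes were 53.0% higher and 49.0% higher, or 66.2% and 36.2% with centred arrays. Gstm1 had signals of 639, 504, 566 and 600.2, Gstm2 of 354, 348, 339 and 375, and Gstm3 of 732, 689, 739 and 712. The second probe set of Gstm3 gave 338, 281, 339 and 355, with an age difference on the high-fat diet of 0.34 against 0.05 for the first.

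Across the 58 members the median age difference was 0.01 with low-fat and -0.00 with high-fat feeding, beside 0.01 and 0.02 over all genes. The median diet difference was 0.03 in young and 0.08 in old mice, beside -0.00 and 0.01. In old mice 40 of the 58 members (69.0%) were higher on the high-fat diet, against 51.4% of all genes. With each array centred on its median 48 members (82.8%) were higher, against 68.0% of all genes, and with the arrays quantile normalized again 38 (65.5%), against 49.9%. The absolute difference had a median of 0.21 for members and 0.15 for all genes by age on the high-fat diet, 0.21 and 0.14 by diet in young mice, 0.11 and 0.14 by age on the low-fat diet and 0.13 and 0.13 by diet in old mice. The median was thus larger for the members than for all genes in the 2 comparisons that use the young/high-fat array and not in the other 2.

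**Figure D4:**
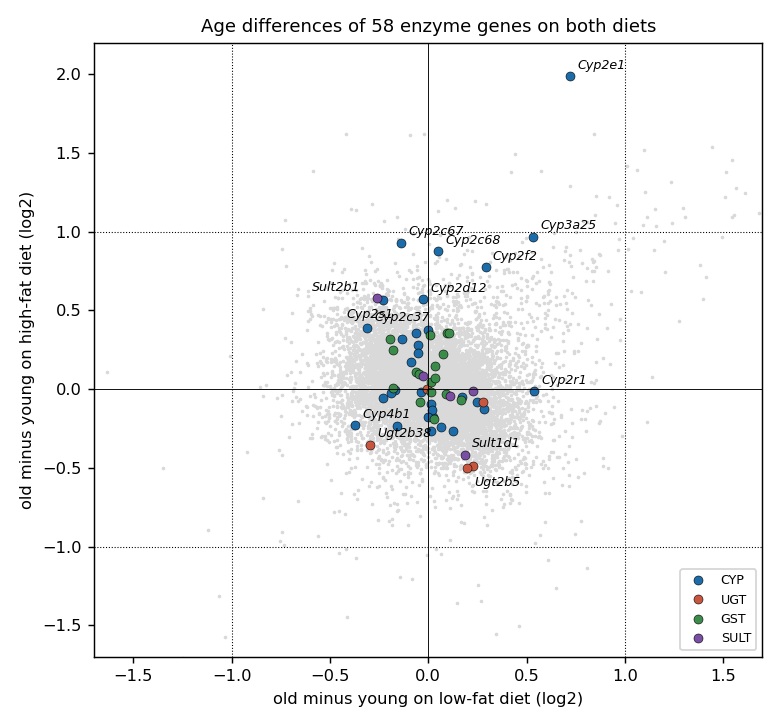
Old minus young difference (log2) on the low-fat diet (x axis) and on the high-fat diet (y axis) for the 58 members above the floor, coloured by family, over all 12665 genes in grey; grey points beyond the axes are not drawn and dotted lines mark 2.0-fold. Cyp2e1 lies alone past 2.0-fold at 1.99 on the y axis, and Cyp2c67 and Cyp2c68 lie high on the y axis but near 0 on the x axis.

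The age effect went the same way on both diets in 20 of the 58 members (34.5%, against 39.1% of all genes), and the diet effect went the same way at both ages in 21 (36.2%, against 35.7%). Members with the largest age difference of 1 sign on both diets were Cyp2e1, Cyp3a25, Ugt2b38, Cyp2f2 and Cyp4b1. For diet these were Cyp3a25, Ugt2b38, Cyp4b1, Cyp2e1 and Cyp2c66. Age effects on the diets were more than 1.5-fold apart in 10 members (17.2%, against 10.6% of all genes): Cyp2c37, Cyp2c67, Cyp2c68, Cyp2d12, Cyp2e1, Cyp2s1, Sult1d1, Sult2b1, Ugt2b36 and Ugt2b5. With signals under 50 raised to 50 Cyp2c37 fell out, at a difference of 0.26 on the log2 scale. With 1 array in each group this difference could not be tested.

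**Figure D5:**
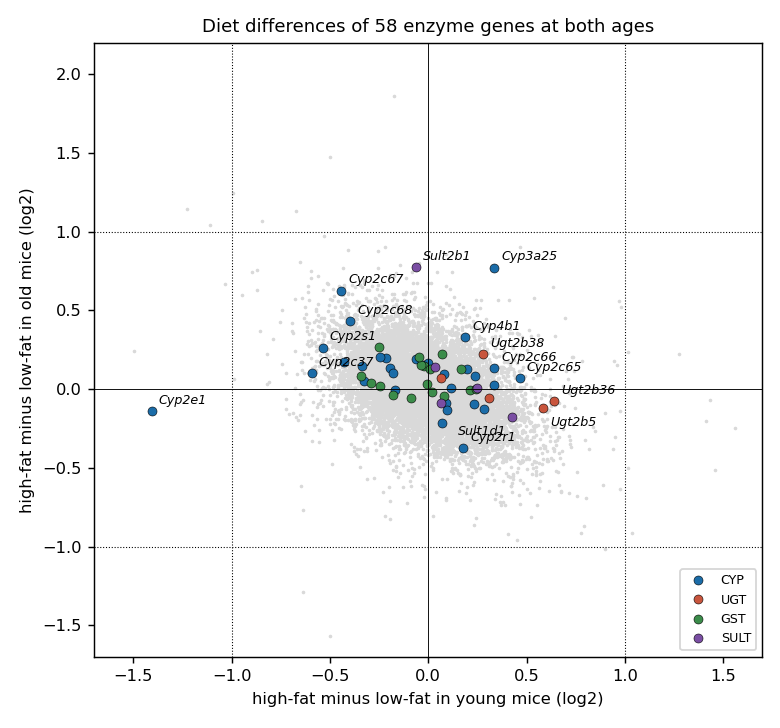
High-fat minus low-fat difference (log2) in young (x axis) and old mice (y axis) for the 58 members above the floor, coloured by family, over all 12665 genes in grey; grey points beyond the axes are not drawn and dotted lines mark 2.0-fold. Cyp2e1 lies at -1.41 on the x axis, Ugt2b5 and Ugt2b36 at 0.58 and 0.64 on the x axis and near 0 on the y axis, and Sult2b1 and Cyp3a25 at 0.77 on the y axis.

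The additive limma fit, in which the 2 old pools were set against the 2 young pools and the 2 high-fat against the 2 low-fat pools, called 0 of the 58 members for age (0.395% of all genes) and 0 for diet (0.0% of all genes) at an adjusted p under 0.05. At an unadjusted p under 0.05, limma gave 4 members for age (Cyp2e1, Cyp3a25, Cyp2f2 and Cyp2c68, all higher in old mice; 6.90%, against 3.68% of all genes) and 2 for diet (Cyp3a25 higher and Cyp2e1 lower on the high-fat diet; 3.45%, against 0.718%). The moderated SE of the age effect lay between 0.16 and 0.25 among the members. It draws on the spread of all genes (8.97 prior degrees of freedom) beside 1 residual degree of freedom of the gene. The residual of the additive fit is the difference of the age effects between diets.

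In the rest of the detoxification system no gene passed 2.0-fold or the limma fit (background shares above), among 21 receptors and regulators, 5 electron donors, 32 other oxidising and hydrolysing enzymes, 12 genes of cofactor supply, 11 other conjugating enzymes and 15 transporters above the floor. Nr1i2, which encodes the xenobiotic receptor PXR, had signals of 891, 627, 702 and 932, lowest on the young/high-fat array, with diet differences of -0.51 in young and 0.41 in old mice. Ahr stood at 259.8, 234, 262 and 251, and Nfe2l2, the antioxidant response factor NRF2, at 2242, 2456, 2132 and 2077. Keap1, which holds NRF2 back, stood at 433, 323, 311 and 461. Nr1i3, which encodes CAR, stayed below the floor. More than 1.5-fold differences were seen in Aldh2, the mitochondrial acetaldehyde dehydrogenase (2410, 1442, 1717 and 2431), in the carboxylesterase genes Ces2a (1661, 1514, 1674 and 2409) and Ces2g (247, 265, 398 and 312), in Fmo1 (62.3, 54.1, 70.9 and 81.4), in Slc35d1, a carrier of UDP-sugars into the endoplasmic reticulum (684, 939.9, 745 and 581), and in the arylamine acetyltransferase gene Nat2 (172, 265, 219.6 and 175). Slc35d1 and Nat2 peaked on the young/high-fat array, as Ugt2b5, Ugt2b36 and 24.1% of all genes did. Aldh2, Ces2a and Fmo1 were lowest there, and Ces2g was lowest on the young/low-fat array. Among exporters, Abcb1a (P-glycoprotein) stood at 5435, 5217, 5523 and 5813 and Abcc3, which exports glucuronides, at 1826, 1359, 1338 and 1747.

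Of the 106 members 88 had a promoter in the RefSeq table. The xenobiotic response element core GCGTG was in 19 of the 88 (21.6%, against 32.5% of all promoters) and TGACNNNGC in 7 (7.95%, against 12.5%). AGGTCA was in 23 (26.1%, against 16.0%), among them the 5 Ugt2b genes Ugt2b5, Ugt2b35, Ugt2b36, Ugt2b37 and Ugt2b38, and Cyp3a25. These counts include members below the floor. Of the 49 promoters of members above it, 12 held GCGTG, 5 held TGACNNNGC and only 9 held AGGTCA. Many members arose by local duplication and share promoter sequence, so they are not separate counts. A match is a string of letters and not a shown binding site.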

How the data were processed

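RNA was measured on 4 arrays, 1 per group. The authors deposited log2 signals from RMA (version not given in the sources used here), that is, background corrected and quantile normalized signals with the probes of a set combined. The methods of the study group probes by Entrez gene, but the deposited identifiers are those of the manufacturer's transcript clusters, so its floor and fold rule act here on other probe sets. Depth does not apply and the number of arrays limits the precision. Of 35556 probe sets, 21789 had 1 gene in the platform annotation, 1621 several and 12146 none. The probe set with the highest mean stood for a gene, and all 106 members matched RefSeq by Entrez identifier. Of the probe sets with several genes 17 include a member symbol. They were not named. Linear signals are 2 to the power of the log2 signal. Pancreatic acinar genes were left out after the practice of the study, leaving 19912 genes, of which 12665 were above the floor.

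Single comparisons are differences of 2 arrays. The additive model was fitted with limma 3.58.1 in R 4.3.3 (lmFit, eBayes, Benjamini-Hochberg over all 12665 genes, with 1 residual and 8.97 prior degrees of freedom). It had first been run on simulated data with independent genes and the same age effect on both diets. That check does not cover genes whose age effect differs between diets. Named members were those over 2.0-fold, the 3 brightest of each class, the 3 highest and lowest of each comparison, the 5 with the largest effect of 1 sign for age and for diet, and those next to the floor, beside genes of marker and pathway lists. Members and lists were chosen with earlier results of these data known. AGGTCA and CAAAGTCCA, the printed promoters, and Cyp1, Cyp2b and Cyp4a genes below the floor were chosen after their values were seen, as was raising signals to 50. Alternatives were other floors, fold thresholds, scalings, probe set means and limma settings.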

Additional observations from a re-analysis of the deposited data

Results flagged for a closer look

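In 8 members above the floor the age difference had one sign on the low-fat and the other on the high-fat diet and differed by more than 1.5-fold between them; with 1 array per group this was not tested. The age difference on the high-fat minus that on the low-fat diet (log2) was 0.70 for Cyp2c37, 1.07 for Cyp2c67, 0.60 for Cyp2d12, 0.80 for Cyp2s1 and 0.84 for Sult2b1. It was -0.60 for Sult1d1, -0.72 for Ugt2b36 and -0.70 for Ugt2b5. Of all genes above the floor 9.96% met the same rule, beside 13.8% of the members. Cyp2c37 had signals of 39.0 and 47.4 below the floor, and with signals under 50 raised to 50 its value was 0.26. That of Cyp2c67, with 40.7 below the floor, was then 0.77. The signs of Cyp2d12 on the low-fat diet (-0.03) and of Cyp2c67 (-0.14) rest on small differences.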

How the results depend on the processing

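The count of members over 2.0-fold was 1 for age on the low-fat, 5 for age on the high-fat, 3 for diet in young and 3 for diet in old mice at a threshold of 1.5-fold, and 0 for diet in young mice at 3.0-fold. It was 0 for age on the high-fat diet and 0 for diet in young mice when both arrays had to be above 50, and 2 for age on the high-fat diet with arrays centred on their medians, where Cyp3a25 joined Cyp2e1. By the additive limma fit, 1 member was called for age with a floor of 100 (Cyp2e1, adjusted p = 0.0272), 1 with an intensity trend in eBayes (Cyp2e1, 0.0389), 1 with probe set means (Cyp2e1, 0.0469) and 2 with centred arrays (Cyp2e1 and Cyp3a25), in which limma estimated infinite prior degrees of freedom. For Cyp2e1 the adjusted p of the limma fits on all 4 arrays depended strongly on the setting. It ran from 1.57e-08 with centred arrays to 0.394 with age as the only term. In limma fits of age alone that left out 1 array, 0 to 1 members were called, Cyp2e1 without the young/low-fat and Cyp3a25 without the old/low-fat array. Each such fit has 1 array in an arm, assumed to vary like the others, and mixes age with diet, and for Cyp2e1 the lone young signal was 43.5, below the floor. For diet 0 were called in every alternative. Keeping the pancreatic genes left the background shares at 0.426%, 0.663%, 0.118% and 0.103%. The medians of the members moved by at most 0.08, with 5 of 20 values changing sign around 0, and 540 values of single named members moved by at most 0.14, of which 43 changed sign. Members above the floor numbered 75 at 20, 48 at 100 and 52 with 50 on all 4 arrays. No paired analysis was possible because each group holds 1 array.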
